A study of Mus musculus with 32 samples.

Results

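The integrated stress response and its mitokines were followed through 10 genes, *Atf4*, *Atf5*, *Ddit3*, *Trib3*, *Asns*, *Chac1*, *Psat1*, *Phgdh*, *Fgf21* and *Gdf15*. They were chosen by name as regulators, target enzymes and secreted products of this response, and all 10 were found by symbol among the 54838 genes of the deposited table. RNA of the tibialis anterior (TA) muscle, a fast hindlimb muscle that the labels call skeletal muscle, was sequenced from wild-type (WT) mice and from *Mtm1* knockout (KO) mice at postnatal day (P) 1, 14, 21 and 35, with n=4 libraries per genotype and age and 32 libraries in all. The KO allele lacks exon 4 of *Mtm1*, which encodes the lipid phosphatase myotubularin. Both genotypes were on the C57BL6/J background, onto which the line, first made in 129S2PAS mice, had been re-derived.

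In the integrated stress response, kinases that sense amino acid shortage, unfolded protein, viral RNA or heme shortage phosphorylate the initiation factor eIF2, so that most translation slows while that of *Atf4* mRNA is favored. The transcription factor ATF4 then switches on amino acid synthesis, amino acid uptake and, if stress lasts, the pro-apoptotic factor CHOP. In muscle with failing mitochondria the same response is known to release the circulating factors FGF21 and GDF15, which are called mitokines. Because ATF4 and ATF5 are controlled largely at translation, RNA levels of these regulators do not report the amount of protein.

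ATF4 and its C/EBP partners are known to bind a composite element whose core was searched here as TGATGNAA on both strands of RefSeq promoter windows (GRCm38.p6), each reaching from 250 bases before to 50 bases after a transcription start. All 10 genes had a window, 13 windows in all, and 4 of the 10 genes held the motif, against 4.51% of the 27025 genes in the table and 3.97% of its 32851 windows. Because the 10 genes were chosen as parts of this response, known ATF4 targets among them, these shares are a description and not a test of enrichment. The 4 genes were *Chac1*, *Asns*, *Fgf21* and *Trib3*, and their positions are counted from the start (negative before it). The sequences shown are those of the genes on which the comparisons turned and of the genes with the motif, 5′ to 3′ on the strand of the gene, with the motif in capitals. The *Chac1* match lay at -193 on the opposite strand, the *Asns* match at -23 on the gene's own strand, the *Fgf21* match at -139 and the *Trib3* match at 14, both on the opposite strand. These positions refer to RefSeq starts. In the GENCODE annotation used for gene positions, *Trib3* starts at 152344032 on the minus strand, so that its match lies before that start. The windows of *Psat1* and *Phgdh*, given for contrast, did not hold these letters, nor did those of *Atf4*, *Atf5*, *Ddit3* and *Gdf15*, which says only that the letters are not in these windows.
Chac1, chr2:119350992-119351241, plus strand: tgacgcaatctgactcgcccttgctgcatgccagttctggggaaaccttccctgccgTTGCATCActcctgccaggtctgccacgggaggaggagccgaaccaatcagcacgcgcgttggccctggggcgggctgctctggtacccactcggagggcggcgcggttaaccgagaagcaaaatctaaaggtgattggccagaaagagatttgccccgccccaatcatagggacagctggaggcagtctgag
Asns, chr6:7693210-7693459, minus strand: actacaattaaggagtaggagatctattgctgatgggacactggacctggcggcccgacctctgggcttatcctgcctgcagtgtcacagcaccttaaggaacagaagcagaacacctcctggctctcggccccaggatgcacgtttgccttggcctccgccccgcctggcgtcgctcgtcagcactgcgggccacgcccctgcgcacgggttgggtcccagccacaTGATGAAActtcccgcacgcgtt
Fgf21, chr7:45615491-45615740, minus strand: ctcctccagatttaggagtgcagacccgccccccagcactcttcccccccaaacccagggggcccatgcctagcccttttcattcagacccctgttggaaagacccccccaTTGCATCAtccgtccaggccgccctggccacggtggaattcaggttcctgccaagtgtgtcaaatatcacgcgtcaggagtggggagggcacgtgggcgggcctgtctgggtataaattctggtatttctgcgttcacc
Trib3, chr2:152344028-152344057, minus strand: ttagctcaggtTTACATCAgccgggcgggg
Psat1, chr19:15925060-15925309, minus strand: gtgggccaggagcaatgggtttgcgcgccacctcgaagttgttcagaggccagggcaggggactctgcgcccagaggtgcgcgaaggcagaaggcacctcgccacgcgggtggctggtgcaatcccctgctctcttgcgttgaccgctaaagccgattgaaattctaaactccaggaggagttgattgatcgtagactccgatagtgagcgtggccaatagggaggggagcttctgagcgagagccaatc
Phgdh, chr3:98339970-98340219, minus strand: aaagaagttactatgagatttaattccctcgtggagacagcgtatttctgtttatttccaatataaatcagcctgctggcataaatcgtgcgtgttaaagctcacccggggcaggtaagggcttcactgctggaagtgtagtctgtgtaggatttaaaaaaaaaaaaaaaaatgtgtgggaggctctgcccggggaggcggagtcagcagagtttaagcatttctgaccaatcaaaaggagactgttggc

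The library totals ranged from 49321035 to 85631408 counts. *Mtm1* was lower in every KO library than in every WT library of its age, at 2.32 to 3.91 CPM (counts scaled to library size) against 5.26 to 6.01 at P1 and at 2.64 to 4.51 against 18.9 to 24.9 from P14 on. The defining transcripts of muscle fibers summed to at least 19923 CPM in each library. At P35 they summed to 66621 to 96484 CPM in KO against 96423 to 155432 CPM in WT. Transcripts of keratinocytes summed to 1848 to 6793 CPM at P1 and to at most 7.18 CPM later. Transcripts of adipocytes summed to 41.3 to 168 CPM in KO libraries at P35 against 5.23 to 25.5 CPM in WT. Of the 5 that could be tested there, 4 were higher in KO, as were 4 of 8 macrophage transcripts, against 8.49% of all genes. Macrophage transcripts at P21 summed to 99.2 to 119 CPM in KO against 84.8 to 97.2 CPM in WT, and 3 of 8 were higher, against 3.18% of all genes. The part of these shifts in the results of the members was not tested. Transcripts encoded by mitochondrial DNA took 10.3% to 10.5% of counts in KO at P35 against 12.3% to 17.9% in WT. Levels are in CPM scaled by trimmed mean of M-values (TMM), and differences between genotypes are log2 fold changes of KO over WT from edgeR's quasi-likelihood test within one age. A gene passed at an adjusted *P*-value under 0.01 and a change of more than 1.5-fold, with no fold limit for changes of the KO effect between ages. Bulk RNA cannot tell fewer cells of a type from less RNA per cell.

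**Figure D1:**
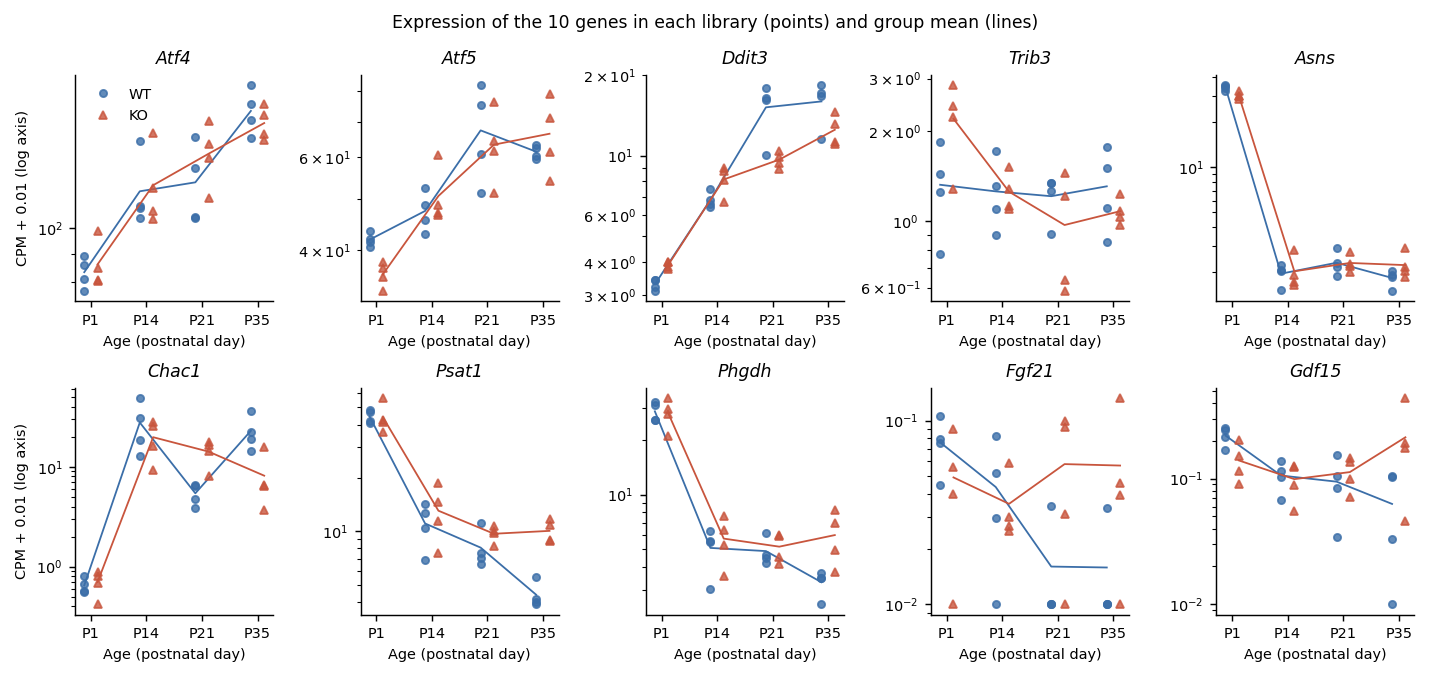
CPM plus 0.01 on a log axis against age for each of the 10 genes, with 1 point per library (blue circles WT, red triangles KO, n=4 per group) and lines through the group means. *Asns*, *Psat1* and *Phgdh* drop after P1 in both genotypes, *Chac1* rises between P1 and P14, and *Fgf21* and *Gdf15* stay below 0.5 CPM in all 32 libraries.

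Per kilobase of exon, so that genes can be compared, *Atf4* was the most abundant of the 10 genes in each of the 8 groups and *Fgf21* the least. In WT muscle at P35, *Atf4* stood at 68.5 ± 6.34 CPM per kb (SD, n=4), *Atf5* at 30.8 ± 0.871, *Chac1* at 14 ± 5.63 and *Ddit3* at 9.32 ± 1.78 CPM per kb. The enzyme genes *Phgdh* (1.32 ± 0.22 CPM per kb), *Psat1* (1.03 ± 0.181) and *Asns* (0.664 ± 0.0854) followed. *Trib3* was at 0.611 ± 0.192 CPM per kb, *Gdf15* at 0.0286 ± 0.0263 and *Fgf21* at 0.00615 ± 0.0123. The libraries of *Chac1* and *Ddit3*, of *Phgdh* and *Psat1*, of *Asns* and *Trib3* and of *Gdf15* and *Fgf21* overlapped in this order, so these neighbors could not be separated. At P1 the order differed, because *Asns* (12.5 ± 0.481 CPM per kb), *Phgdh* (11.5 ± 1.42) and *Psat1* (10.4 ± 0.86) followed the 2 ATF genes in WT and *Chac1* was at 0.39 ± 0.0715 CPM per kb.

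The comparison of KO with WT at each age asked whether loss of *Mtm1* was accompanied by a transcriptional stress response. Few of the 10 genes passed. At P1, 9 of the 10 genes passed the filter on low counts and 0 passed the test, as did 0.0442% of all genes. At P14, 8 were tested and 0 passed, against 0.0318% of all genes (0.623% with a replicate block, which also gave 0 members), and 0 had separate groups, against 4.84%. At P21, 1 of 8 passed (*Chac1*, higher in KO), against 4.67% of all genes and 3.18% as higher, and at P35, 1 of 8 passed (*Psat1*, higher in KO), against 16% and 8.49% as higher. *Fgf21* was never abundant enough to be tested, and *Gdf15* was tested at P1 alone. The targeted gene *Mtm1* passed at P14, P21 and P35 but not at P1 (log2 fold change -0.98, SE 0.172, adjusted *P*=0.0668 in edgeR's test). A 1.97-fold lower level could thus miss the test at P1, although its groups did not overlap. An unadjusted *P*-value under 0.05 was found for 5 of 9 members at P1, against 10.9% of all genes, and for 1 of 8 at P14, against 6.82% (3 of 8 with the block, against 21.8%). At P21 it was found for 2 of 8, against 35.1%, and at P35 for 3 of 8, against 50.3%. DESeq2 gave 0 members at P1 and at P14.

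**Figure D2:**
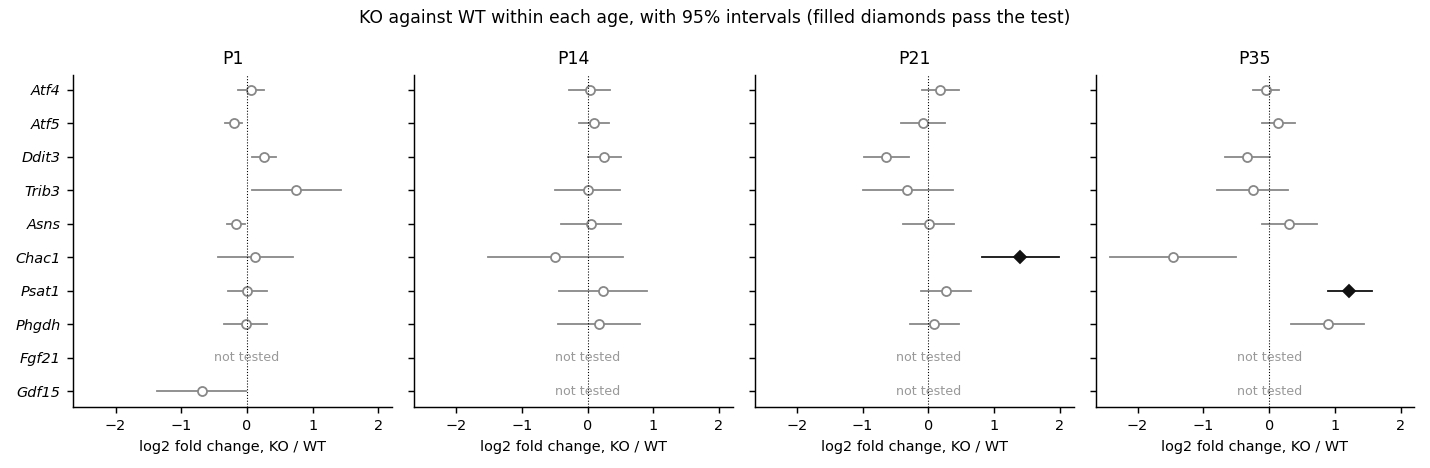
log2 fold change of KO over WT (points) with 95% intervals (lines) for each gene, 1 panel per age, n=4 against 4 libraries. Filled diamonds mark the 2 changes that passed the test, *Chac1* at P21 (1.40) and *Psat1* at P35 (1.22), and *Chac1* lies on the other side of 0 at P35 (-1.47).

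*Atf4*, which encodes the main effector of the response, did not pass at any age, with log2 fold changes of KO over WT from -0.05 to 0.18. At P35 its levels in the WT libraries were 180, 166, 145 and 156 CPM, and those in KO were 166, 147, 143 and 159 CPM. The groups overlapped, and the log2 fold change was -0.05 (95% interval -0.24 to 0.15, adjusted *P*=0.695). WT levels at P21 were 145, 128, 104 and 105 CPM, while KO levels were 141, 133, 155 and 113 CPM, which gave 0.18 on the log2 scale (-0.09 to 0.46, adjusted *P*=0.324). Scaling by library totals moved the median of all genes at P35 to 0.44. On that scale *Atf4* stood at 0.36, below the median gene, with an adjusted *P*=0.0036 but a change under 1.5-fold.

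*Atf5*, which encodes a related factor linked to the mitochondrial unfolded protein response, did not pass at any age. With library totals it stood at 0.55 at P35 (adjusted *P*=0.00409, under 1.5-fold), where the median of all genes was 0.44. Its WT levels at P1 were 42, 41.4, 43.4 and 40.5 CPM and its KO levels 35.6, 36.9, 37.9 and 33.4 CPM, so that every KO library lay below every WT library. The log2 fold change of -0.20 (SE 0.0576) had an adjusted *P*=0.24. The 3 members with separate groups at P1 were *Atf5*, *Asns* and *Ddit3*, against 8.62% of all genes tested. The annotated span of *Atf5*, from gene start to gene end, overlaps that of *Nup62* on the other strand over 571 bases. The strand setting of the counting is not given in the sources used here.

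*Ddit3*, which encodes the pro-apoptotic factor CHOP, did not pass at any age, and its values at P21 and P35 lay below 0. WT libraries at P21 had 18, 16.2, 10 and 16.5 CPM, and KO libraries had 10.4, 9.9, 8.92 and 9.4 CPM. One WT library lay within the KO range and the other 3 lay above it. The log2 fold change was -0.64 (SE 0.155, adjusted *P*=0.0183), short of the threshold of 0.01. Without WT replicate 3 at P21, *Ddit3* passed as lower in KO (-0.80, adjusted *P*=0.000972), as it did with DESeq2 (-0.66, adjusted *P*=0.000997).

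*Ddit3* levels at P35 spanned 11.5, 18.4, 16.8 and 17.1 CPM over WT libraries, against 11, 11.3, 13.2 and 14.5 CPM over KO libraries. Both groups overlapped, and the log2 fold change of -0.33 (-0.67 to 0.01) had an adjusted *P*=0.108. With library totals this value was 0.07, but *Ddit3* lay below the median gene by about the same distance with both scalings (-0.36 with TMM and -0.37 with library totals). At the younger ages the sign was the other way, 0.26 at P1 (adjusted *P*=0.318) and 0.25 at P14 (adjusted *P*=0.724, and 0.11 with the block, higher in KO in 4 of 4 pairs), on levels of 3.28 ± 0.151 CPM in WT against 3.88 ± 0.122 CPM in KO at P1 (SD, n=4). The change of the KO effect from P14 to P21 was -0.91 (SE 0.196, adjusted *P*=0.0148), and it passed in DESeq2 (-0.93, adjusted *P*=0.00119), without WT replicate 3 at P21 (-1.06, adjusted *P*=0.000717), without KO replicate 3 at P14 (-0.99, adjusted *P*=0.00977) and without WT replicate 1 at P35 (-0.90, adjusted *P*=0.00609). The annotated span of *Ddit3* overlaps that of *Mars* on the other strand over 68 bases. Another gene ID with the symbol *Ddit3* overlaps it on the same strand over 2925 bases and held 0 counts in every library. The ID with counts was used.

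*Trib3*, which encodes a pseudokinase that ATF4 and CHOP induce and that feeds back on them, had its highest levels in KO muscle at P1. KO libraries held 2.43, 2.22, 1.28 and 2.85 CPM, and WT libraries held 1.43, 0.767, 1.82 and 1.24 CPM. KO replicate 3 lay within the WT range. The log2 fold change of 0.75 (SE 0.302) had an adjusted *P*=0.41. From P14 on the group means lay between 0.961 and 1.3 CPM, and no difference between genotypes passed.

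*Chac1*, which encodes an enzyme that breaks down glutathione, was the member with the widest swings between libraries and ages. WT libraries at P21 held 3.86, 6.54, 6.47 and 4.79 CPM, while KO libraries held 8.06, 14.3, 16.6 and 17.8 CPM, and every KO library lay above every WT library. It was the only member without overlap at P21, against 24.7% of all genes. The fold change was 2.64 (log2 1.40, SE 0.261, adjusted *P*=0.00616).

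At P35 the direction was the reverse. WT libraries had 18.9, 22.4, 35.9 and 14.6 CPM, and KO libraries had 15.9, 6.56, 6.42 and 3.72 CPM, so that KO replicate 1 lay within the WT range and the other 3 below it. The log2 fold change was -1.47 (SE 0.426, adjusted *P*=0.021). It passed without KO replicate 1 (-2.02, adjusted *P*=0.00228), in DESeq2 (-1.49, adjusted *P*=0.0098) and in one fit of all 32 libraries. The change of the KO effect from P21 to P35 was tested as an interaction and passed, at -2.88 (95% interval -4.05 to -1.72, SE 0.571, adjusted *P*=0.00706), against 0.463% of all genes.

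The *Chac1* results lay close to the threshold. Leaving out 1 library at a time kept the P21 difference between 1.25 and 1.60, but its adjusted *P*-value was above 0.01 in 7 of the 8 fits, at 0.019 without WT replicate 1, 0.0127 without WT replicate 2, 0.011 without WT replicate 3 and 0.0176 without WT replicate 4. It was 0.0182 without KO replicate 2, 0.0164 without KO replicate 3 and 0.019 without KO replicate 4. The interaction stayed between -3.43 and -2.59 in 16 such fits, of which 4 passed, those without KO replicate 1 at P21, WT replicate 1 at P35, WT replicate 4 at P35 or KO replicate 1 at P35, and the adjusted *P*-value reached at most 0.0218. With library totals it was -2.66 (adjusted *P*=0.0106).

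The levels of *Chac1* also varied within groups, from 12.8 to 48.8 CPM in WT at P14 and from 9.28 to 28 CPM in KO. At that age the KO effect was -0.49 (SE 0.449, adjusted *P*=0.941), and with the block it was -0.44 (SE 0.179, adjusted *P*=0.183), lower in KO in 3 of 4 pairs. Mean WT levels ran from 0.638 CPM at P1 to 27.8 at P14, 5.42 at P21 and 23 at P35, and mean KO levels from 0.691 to 19.8, 14.2 and 8.14 CPM. WT muscle thus fell and rose again after P14, and no step after P14 passed in KO muscle. The change of the KO effect from P14 to P21 did not pass (1.88, SE 0.562, adjusted *P*=0.0953 in edgeR's test). A difference between the genotypes in that step was therefore not shown.

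*Psat1* and *Phgdh* encode enzymes of serine synthesis, of which PHGDH catalyzes the first step and PSAT1 the one after it. At P35 the *Psat1* levels in WT were 3.87, 5.52, 4.13 and 3.99 CPM, and those in KO were 8.95, 11.7, 10.8 and 8.77 CPM. Every KO library lay above every WT library, and the fold change was 2.34 (log2 1.22, SE 0.15, adjusted *P*=0.000334). *Psat1* passed in each of the 8 fits that left out 1 library (1.14 to 1.35), in DESeq2 and with library totals (1.63).

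*Phgdh* levels at P35 were 3.72, 3.49, 3.47 and 2.49 CPM for WT, compared with 7.01, 8.21, 4.96 and 3.74 CPM for KO. The lowest KO library lay just above the highest WT library. The log2 fold change of 0.89 (SE 0.247) had an adjusted *P*=0.0176. It passed without KO replicate 4 (1.04, adjusted *P*=0.00536), in DESeq2 (0.87, adjusted *P*=0.00245) and with library totals (1.30, adjusted *P*=0.00233). *Psat1* and *Phgdh* were the 2 members without overlap between genotypes at P35, against 39.6% of all genes.

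Neither gene passed earlier. *Psat1* had log2 fold changes of 0.0023 at P1, 0.24 at P14 and 0.27 at P21, with adjusted *P*-values of 0.996, 0.962 and 0.3. At P14, where same-numbered libraries were read as pairs, the block gave 0.22 for *Psat1* (SE 0.0862, unadjusted *P*=0.0279, adjusted *P*=0.168 in edgeR's test), which was higher in KO in 4 of 4 pairs. *Phgdh* had -0.02, 0.17 and 0.09, with adjusted *P*-values of 0.971, 0.974 and 0.734. The change of the KO effect from P21 to P35 was 0.94 for *Psat1* (SE 0.312, adjusted *P*=0.105) and 0.78 for *Phgdh* (SE 0.337, adjusted *P*=0.22), so a difference between the ages was not shown. In the WT libraries *Psat1* fell between P21 and P35, and in KO its mean was 9.68 ± 0.996 CPM at P21 and 10 ± 1.42 CPM at P35 (SD, n=4).

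The third enzyme gene of the serine pathway, *Psph*, did not pass at P35 (-0.36, SE 0.11, adjusted *P*=0.028), and its distance from the median gene was -0.39 on the log2 scale with TMM and with library totals. Adipocyte transcripts in the 4 KO libraries at P35 summed to 143, 168, 62.1 and 41.3 CPM, in the same order as their *Phgdh* levels. *Psat1* levels in these libraries (8.95, 11.7, 10.8 and 8.77 CPM) did not have that order. Macrophage transcripts in these libraries summed to 85, 114, 122 and 106 CPM, against 70.4 to 89.9 CPM in WT. The part of these cell types in the *Psat1* and *Phgdh* results was not tested.

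**Figure D3:**
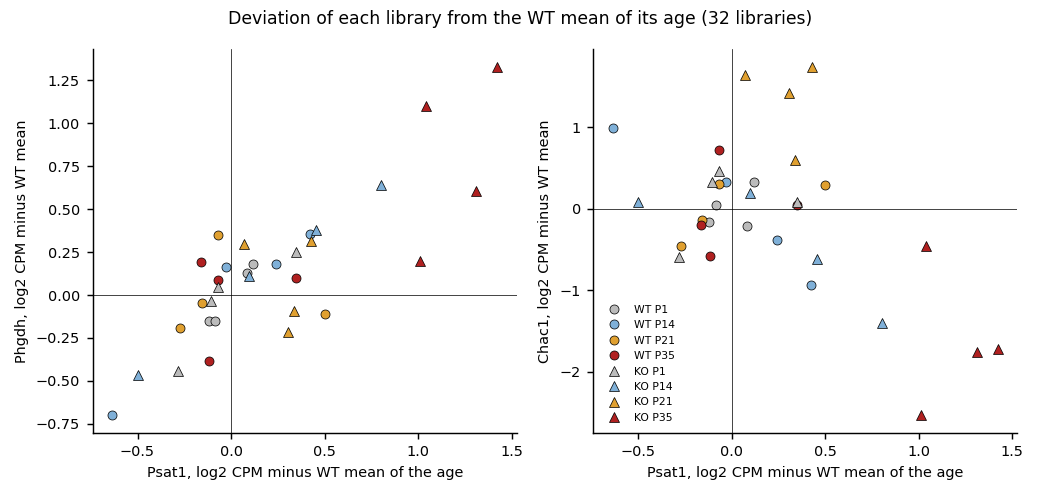
Deviation of each of the 32 libraries from the WT mean of its age on the log2 CPM scale, *Psat1* on the horizontal axis against *Phgdh* (left) and *Chac1* (right), with circles for WT, triangles for KO and colors for age. The 4 KO libraries at P35 lie farthest to the right, above the WT mean for *Phgdh* and below it for *Chac1*.

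Across the 32 libraries, with the WT mean of the same age subtracted, *Psat1* and *Phgdh* varied together (Pearson's r 0.82), more than any other pair of members. *Asns* correlated with *Psat1* at 0.65 and with *Phgdh* at 0.61, and *Chac1* with *Psat1* at -0.55. *Atf4* correlated with *Chac1* at 0.42, with *Psat1* at -0.42 and with *Asns* at -0.35. These values are descriptions, since the libraries share their ages, genotypes and scaling. Among 18583 genes, those most like *Psat1* by this measure were *St8sia2* (0.943), *Snx7* (0.941) and *Crabp2* (0.922), and those most like *Phgdh* were *2410002F23Rik* (0.912), *Arxes1* (0.882) and *Sgsm2* (0.868). For *Chac1* they were *Ino80* (0.821), *Sord* (0.806) and *Gm5420* (0.766), for *Ddit3* *Atad1* (0.834), *Rfc4* (0.794) and *Nrarp* (0.779), and for *Asns* *Adgra2* (0.849), *Dpy19l1* (0.848) and *Sec61a1* (0.839). The genes most like *Atf4* were *Slc25a38* (0.796), *Ppp1r2* (0.755) and *Zfp207* (0.732). *Atf5* was nearest to *Gpx3* (0.655), *Fbxl16* (0.654) and *Gpkow* (0.632), and *Trib3* to *Slc30a1* (0.808), *Yod1* (0.779) and *Gdpd1* (0.741).

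*Asns*, which encodes asparagine synthetase, a classical ATF4 target, showed no genotype difference that passed. WT libraries at P35 held 1.48, 1.85, 1.9 and 2.03 CPM, against KO libraries at 2.14, 2.88, 2.01 and 1.84 CPM. Both groups overlapped (log2 fold change 0.31, SE 0.188, adjusted *P*=0.21). At P1 all 4 KO libraries (28.6 to 32.5 CPM) lay below all 4 WT libraries (32.6 to 35.6 CPM), with a log2 fold change of -0.17 (adjusted *P*=0.347).

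The mitokine genes were close to absent from this muscle. *Fgf21*, the product of which acts on the FGFR1 receptor with β-Klotho, had at most 9 counts in any library and 0 counts in 10 of the 32 libraries. Its counts at P35 were 0, 1, 0 and 0 in WT and 0, 2, 8 and 2 in KO, and at P21 they were 0, 0, 1 and 0 in WT and 0, 1, 4 and 4 in KO. More KO than WT libraries held counts at both ages, but a KO library at 0 counts occurred at each. With no filter on low counts the log2 fold change at P35 was 2.62 (SE 1.27, adjusted *P*=0.168) and at P21 it was 2.52 (SE 1.19, adjusted *P*=0.228). A count of 0 cannot be told from up to 3 counts at this depth.

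*Gdf15*, which encodes a stress cytokine that signals through GFRAL and RET, had 10, 29, 12 and 2 counts in the KO libraries at P35 and 0, 4, 4 and 1 in WT. The groups overlapped, and KO replicate 2 held the most counts of the 8 libraries. The gene was too low for the test within P35. It entered one fit of all 32 libraries because the filter there also counted the P1 libraries. In that fit the log2 fold change at P35 was 1.93 (SE 0.596, adjusted *P*=0.0102) and did not pass. With library totals that fit gave 2.35 (adjusted *P*=0.00154). Both values rest on P35 counts that were too low for the test within that age. With no filter on low counts, the fit of the 8 libraries at P35 gave 1.95 (SE 0.787, adjusted *P*=0.0965).

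At P1 the *Gdf15* counts were 23, 18, 16 and 25 in WT and 14, 21, 12 and 9 in KO (log2 fold change -0.69, SE 0.299, adjusted *P*=0.444). These 4 WT libraries were among the 6 highest counts of the gene. At P14 and P21 no library of either genotype held more than 7 counts. Over the 32 libraries *Gdf15* was most like *Kcne1l* (0.79), *Magi2* (0.778) and *Srbd1* (0.764). Transcripts of hepatocytes, a known source of FGF21, summed to at most 1.46 CPM in any library.

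**Figure D4:**
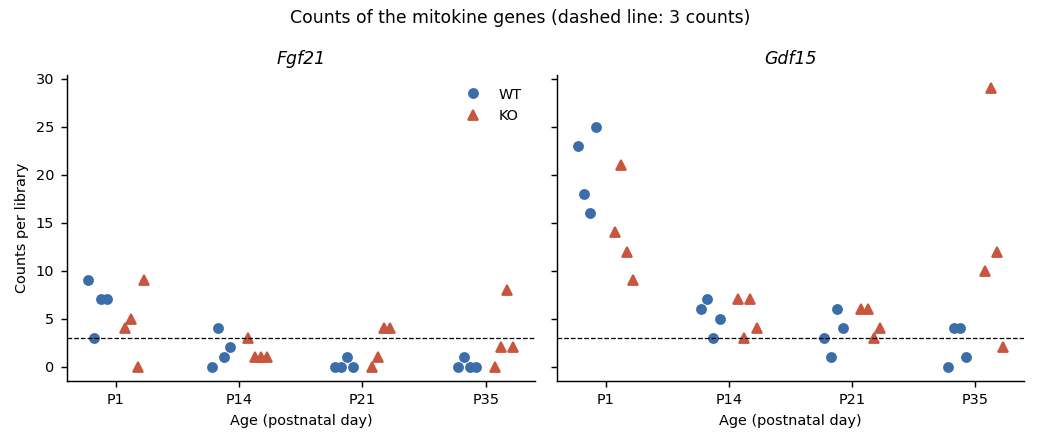
Counts per library of *Fgf21* (left) and *Gdf15* (right) against age, with blue circles for WT, red triangles for KO and a dashed line at 3 counts. *Fgf21* does not exceed 9 counts, and the highest *Gdf15* count is 29 in a KO library at P35.

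Between P1 and P14, 5 of the 9 members tested passed in WT, against 53.5% of all genes, and the same 5 passed in the same directions in KO, against 53.7%. *Asns* fell 17.6-fold in WT, from 34.3 ± 1.32 to 1.94 ± 0.302 CPM (log2 -4.14, SE 0.161), and 15-fold in KO (log2 -3.91, SE 0.159). *Phgdh* fell 5.62-fold in WT and 4.88-fold in KO, and *Psat1* fell 4.01-fold and 3.37-fold. The serine and asparagine enzymes thus shared a drop after birth in both genotypes. *Chac1* rose 43.3-fold in WT (log2 5.44, SE 0.487) and 28.2-fold in KO (log2 4.82, SE 0.472). *Ddit3* rose 2.08-fold in WT and 2.09-fold in KO. The largest adjusted *P*-value among these 10 results was 1.56e-07 in edgeR's test.

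The scaling mattered for this step. Library totals put the median of all genes at -0.87 in WT and -0.81 in KO, against -0.09 and -0.08 with TMM. On that scale *Ddit3* no longer passed (0.28 in WT and 0.33 in KO), and *Atf4* changed from 0.48 to -0.31 in WT and from 0.47 to -0.29 in KO, while *Atf5* changed from 0.18 to -0.61 in WT and from 0.49 to -0.26 in KO. *Asns*, *Phgdh*, *Psat1* and *Chac1* kept their direction and passed. Keratinocyte transcripts (at least 1848 CPM at P1 and at most 5.02 CPM at P14) and adipocyte transcripts (at least 68.4 and at most 23 CPM) were lower at P14 in both genotypes, and their part in the drop of *Asns*, *Phgdh* and *Psat1* was not tested.

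*Trib3* stood at 2.19 ± 0.665 CPM in KO at P1 and at 1.25 ± 0.193 CPM at P14 (SD, n=4), a log2 change of -0.82 (SE 0.281, adjusted *P*=0.0103). It passed in 2 of the 8 fits that left out a KO library of these ages, without KO replicate 3 at P1 (-1.01, adjusted *P*=0.00216) and without KO replicate 4 at P14 (-0.92, adjusted *P*=0.00972), and in DESeq2 (-0.89, adjusted *P*=0.00291) and with library totals (-1.59). In WT the change was -0.08 (adjusted *P*=0.8). The change of the KO effect from P1 to P14 did not pass as an interaction (-0.74, SE 0.4, adjusted *P*=0.812), where 0 of 9 members passed against 0.0161% of all genes, with 0 members at an unadjusted *P*-value under 0.05 against 6.46% of all genes.

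Between P14 and P21, *Ddit3* rose 2.22-fold in WT (log2 1.15, SE 0.14, adjusted *P*=1.17e-06) and *Chac1* fell 5.12-fold (log2 -2.36, SE 0.415, adjusted *P*=0.000143), 2 of 9 members against 6.83% of all genes. In KO, 0 of 9 members passed against 9.16% of all genes, with values of 0.25 for *Ddit3* (adjusted *P*=0.191) and -0.48 for *Chac1* (adjusted *P*=0.389), and DESeq2 gave 0 as well while 1 had an unadjusted *P*-value under 0.05, against 38.6% of all genes. *Atf5* in WT stood at 47.4 ± 4.11 CPM at P14 and 67.5 ± 14 CPM at P21, a log2 change of 0.51 (adjusted *P*=0.00343) that was under 1.5-fold, and it passed without WT replicate 3 at P21 (0.62, adjusted *P*=0.000519). In the interaction from P14 to P21, 0 of 9 members passed in edgeR's test against 0.425% of all genes, 2 had an unadjusted *P*-value under 0.05, against 12.9%, and DESeq2 gave 1.

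Between P21 and P35, *Chac1* rose 4.24-fold in WT (log2 2.08, SE 0.413, adjusted *P*=0.00097) and *Psat1* fell 1.85-fold (log2 -0.88, SE 0.227, adjusted *P*=0.00747), 2 of 9 members against 4% of all genes. Of the 8 fits that left out a WT library of these ages, *Psat1* passed in 3, and it missed without WT replicate 2 at P21 (adjusted *P*=0.0112), WT replicate 3 at P21 (0.0509), WT replicate 1 at P35 (0.0274), WT replicate 3 at P35 (0.0197) and WT replicate 4 at P35 (0.0253). In KO, 0 of 9 members passed against 6.34% of all genes, with 1 at an unadjusted *P*-value under 0.05, against 38%, and 0 in DESeq2. The *Chac1* value in KO was -0.80 (SE 0.396, adjusted *P*=0.136).

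Genes that work with these 10 were followed in 5 lists. The sensor kinases, the eIF2 phosphatase subunits and their relatives comprised 11 genes, all tested at each age. None passed at P1, P14 or P21, and at P35 1 of 11 was lower in KO, where 16% of all genes passed. This was *Dele1*, which encodes the messenger that carries mitochondrial stress to the cytosol, at 117 ± 11.4 CPM for WT and 69.1 ± 6.15 CPM in KO (SD, n=4, log2 fold change -0.73, SE 0.095, adjusted *P*=0.000435), and it did not pass with library totals (-0.33, adjusted *P*=0.0151), although its distance from the median gene was -0.77 with both scalings. The median of the list was -0.04 at P35, beside 0.04 over all genes. The kinase genes *Eif2ak2* and *Eif2ak3*, which encode PKR and PERK, had log2 fold changes of 0.01 and 0.04. *Eif2ak4*, which encodes GCN2, was at -0.46 (SE 0.133, adjusted *P*=0.0215 in edgeR's test). At P21 it was at -0.49 (SE 0.0941, adjusted *P*=0.00728), under 1.5-fold. *Eif2ak1*, which encodes the heme-sensing kinase that acts with DELE1, was at -0.51 (SE 0.0689, adjusted *P*=0.000518), and *Impact*, which encodes an inhibitor of the GCN2 kinase, at 0.51 (SE 0.113, adjusted *P*=0.00633), both under 1.5-fold. With library totals *Impact* passed as higher at P35 (0.91, adjusted *P*=0.000116 in edgeR's test), while *Eif2ak1* (-0.11) and *Eif2ak4* (-0.05) did not pass.

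Of 27 other targets of ATF4 and CHOP, 0 passed at P1, P14 and P21, and at P35 1 was higher and 2 were lower, 3 of 27 against 16% of all genes. *Atf3*, a stress-induced transcription factor gene, had 4.81 ± 1.71 CPM in WT and 30.2 ± 6.87 CPM in KO (SD, n=4, log2 fold change 2.68, SE 0.268, adjusted *P*=0.000148). *Gpt2*, which encodes a mitochondrial alanine transaminase, had 405 ± 145 CPM in WT and 123 ± 52.6 CPM in KO (-1.70, SE 0.323, adjusted *P*=0.00283). *Cebpg*, which encodes a C/EBP partner of ATF4, was at -0.67 (SE 0.099, adjusted *P*=0.000805) and did not pass with library totals (-0.27, adjusted *P*=0.0285). The median of the list was -0.14 (0.26 with library totals, on which scale the median of all genes was 0.44). The amino acid transporter genes *Slc7a11* (-0.59) and *Slc7a5* (0.24) and the folate enzyme gene *Mthfd2* (0.28) did not pass. With library totals *Slc7a5* (0.65, adjusted *P*=0.00271 in edgeR's test) and *Mthfd2* (0.69, adjusted *P*=0.00645) passed as higher, while *Slc7a11* (-0.19) did not pass.

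The 7 genes for receptors of the mitokines included 5 that could be tested at P21 and P35. *Klb*, which encodes β-Klotho, could be tested at P1 alone, and *Gfral*, which encodes the GDF15 receptor, at no age. At P35, 2 of the 5 passed, against 16% of all genes, and at P21 1 of 5, against 4.67%. *Fgfr4* was lower in KO at P21 (-1.06, SE 0.205, adjusted *P*=0.00713, and -0.88 with an adjusted *P*=0.0165 with library totals) and at P35 (-1.37, SE 0.238, adjusted *P*=0.00178), with 3.93 ± 0.492 CPM for WT and 1.49 ± 0.534 CPM for KO at P35 (SD, n=4). *Ret*, the signaling partner of the GDF15 receptor and a receptor for neurotrophic factors, was lower at P35 (-1.27, SE 0.165, adjusted *P*=0.000432). *Fgfr1*, the main receptor gene for FGF21, was at 0.51 (SE 0.138, adjusted *P*=0.0153), and *Fgfr2* had the largest value of the list, 2.72 (SE 0.751, adjusted *P*=0.0171). Both passed as higher with library totals, at 0.92 and 3.16. The median of the list was 0.15 at P35.

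Of 11 mitochondrial chaperone and protease genes, 1 passed at P35, against 16% of all genes, *Dnaja3* (-0.61, SE 0.074, adjusted *P*=0.000322). Their median was -0.41, beside 0.04 over all genes, and 10 of the 11 values were below 0, from -0.61 to -0.20, with *Hspe1* at 0.11. With library totals 0 of them passed and the median was -0.0073, but the distance of the list's median from that of all genes was about the same, -0.44 with TMM and -0.45 with library totals. The list of 14 genes for chaperones of the endoplasmic reticulum and the other arms of the unfolded protein response had a median of 0.32 at P35, and 2 of 14 were higher in KO, against 8.49% of all genes as higher. These were *Manf* (0.72, SE 0.129, adjusted *P*=0.002) and *Sdf2l1* (0.97, SE 0.206, adjusted *P*=0.00512), while *Hspa5*, which encodes the main chaperone of this compartment, was at 0.24 (adjusted *P*=0.133). With library totals *Hspa5* passed as higher (0.65, adjusted *P*=0.00163 in edgeR's test), on a scale where the median of all genes was 0.44.

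**Figure D5:**
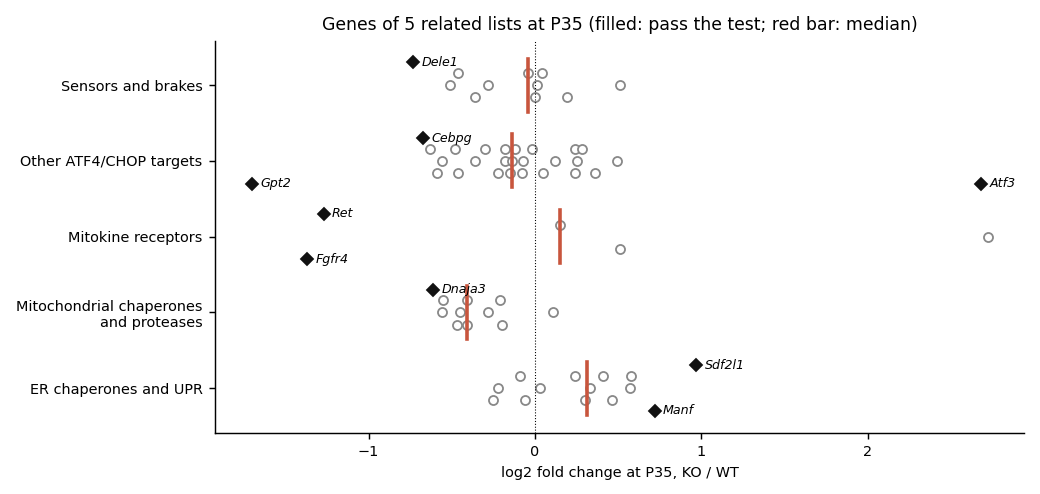
log2 fold change of KO over WT at P35 for the tested genes of 5 lists, with open circles for genes that did not pass, filled diamonds with names for those that passed and a red bar at the median of each list. The medians run from -0.41 for mitochondrial chaperones and proteases to 0.32 for chaperones of the endoplasmic reticulum.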

How the data were processed

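RNA-seq libraries were prepared from poly(A) RNA with a directional kit. The authors deposited RSEM expected counts per Ensembl gene, not normalized. The submitters' processing notes name STAR 2.6.1, RSEM 1.2.22, DESeq2 and GRCm38, whereas the methods name HTSeq, DESeq2 and edgeR, and the annotation release and strand setting are not given in the sources used here. Symbols, exon lengths and positions came from a GENCODE annotation of GRCm38. Expected counts were rounded to whole numbers, filtered with filterByExpr, scaled by TMM and tested with edgeR 4.0.16 (R 4.3.3, two-sided quasi-likelihood test). *P*-values were adjusted by Benjamini and Hochberg's method across every tested gene. A prior count of 2 was used for log2 CPM values only. KO and WT were compared in 8 libraries per age, and ages and interactions in one fit of 32 libraries. Thresholds were an adjusted *P*-value of 0.01 and 1.5-fold. Intervals are 95% intervals.

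Libraries were grouped by genotype and age from the labels, and no column was left out. The methods give 4 muscles per genotype at P14, P21 and P35, whereas the labels do not tie libraries to mice, so *P*-values measure the spread between these libraries. Every pair within a group differed beyond counting noise (chi-square per degree of freedom 10.5 to 256). Without molecular identifiers, counts are reads and a floor of 3 counts covers counting error only. The members and the lists were chosen with earlier results of these data known. The text names the members, *Mtm1*, genes of the lists that passed, their key components and the 3 genes most like each member. Alternatives were other scalings (RLE factors, library totals), DESeq2 1.42.0, other filters, no mitochondrially encoded genes, a replicate block, a joint fit, other thresholds and leaving out each library. The scripts were tested on simulated data. At P14, same-numbered WT and KO libraries deviated together (correlations 0.415, 0.468, 0.295 and 0.731), although WT replicate 2 correlated best with a KO library of another number. The shared numbers were read as pairs from these correlations alone, since the labels do not say what a number marks. The block changed no member's call at that age.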

Additional observations from a re-analysis of the deposited data

Results flagged for a closer look

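In 6 of 80 sets of 4 libraries (10 genes in 8 groups), 1 library stood apart from the other 3 by Dixon's criterion, which chance does in about 1 in 20 sets of normally distributed values. That rate does not hold for sets with very few counts, such as those of *Fgf21*, where 1 count beside 3 libraries at 0 always stands apart. *Atf4* had 143 CPM in WT replicate 4 at P14, where the others had 104 to 109 CPM. *Atf5* had 60.5 CPM in KO replicate 4 at P14, where the others had 46.5 to 48.6 CPM. *Psat1* had 5.52 CPM in WT replicate 2 at P35, where the others had 3.87 to 4.13 CPM. *Fgf21* stood apart in WT replicate 3 at P21 (0.0242 CPM) and WT replicate 2 at P35 (0.0234 CPM), in each case 1 count beside 3 libraries at 0, and in KO replicate 1 at P14 (0.0491 CPM, 3 counts).

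The effect of KO on *Chac1* differed between P21 and P35 by the test of the interaction, with a log2 difference of -2.88 (adjusted *P*=0.00706 in edgeR's quasi-likelihood test).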

How the results depend on the processing

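The 0 calls among the members at P1 and P14 held under each alternative run. At P21, DESeq2 and an adjusted *P*-value under 0.05 with no fold limit each gave 2 members, and leaving out 1 library gave 0 to 1. At P35, library totals gave 2, and DESeq2, the replicate block, one fit of all 32 libraries and an adjusted *P*-value under 0.05 each gave 3 (*Chac1*, *Phgdh* and *Psat1*), with 1 to 2 when 1 library was left out. Between P21 and P35 in WT, library totals gave 1 (1 to 2 with 1 library left out). For the interaction, DESeq2 gave 1 from P14 to P21 (0 to 1 with 1 library left out), and library totals gave 0 from P21 to P35 (0 to 1). In the lists at P35, library totals gave 2 sensors, 8 other targets, 4 receptors, 0 mitochondrial chaperones and 8 chaperones of the endoplasmic reticulum, on a scale on which 30% of all genes passed, 93% of them as higher. At P21 they gave 1 other target and 2 chaperones of the endoplasmic reticulum, DESeq2 gave 2 receptors and 1 such chaperone, and the block gave 2 receptors. DESeq2 gave 1 other target at P1. The causes of these shifts were not tested.

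Library totals raised the share of all calls that were higher in KO from 68% to 90.9% at P21 and from 53% to 93% at P35, with the median of all genes at 0.20 and 0.44. It moved genes alike: the tested members lay at about the same distance from the median gene at P35 with both scalings (*Psat1* 1.19 and 1.19, *Chac1* -1.50 and -1.52). Calls that were higher with age went from 45.2% to 13.7% (WT) and 45.7% to 14.7% (KO) from P1 to P14, 44.4% to 20.7% (WT) from P14 to P21, and 55.8% to 44.9% (WT) and 51.1% to 82.3% (KO) from P21 to P35. For the interaction from P21 to P35 the share went from 32.6% to 82.4%.

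Values that changed sign did not pass. With library totals these were *Phgdh* at P1 (0.02), *Trib3* at P14 (0.10) and P35 (0.15), *Atf5* at P21 (0.12), and *Atf4* (0.36) and *Ddit3* (0.07) at P35. Of these, *Atf4* at P35 missed on the fold limit alone (adjusted *P*=0.0036 in edgeR's test). *Psat1* at P1 was -0.0077 with RLE factors, -0.0078 in DESeq2 and -0.01 with no filter, the block or the joint fit. *Trib3* at P14 was 0.0016 with no filter, 0.00089 with 10 counts in every library, 0.02 with the block and 0.00086 in the joint fit. *Asns* at P21 was -0.01 with RLE factors, -0.0097 in DESeq2, -0.0012 with no filter and -0.003 in the joint fit. Leaving out 1 library gave, at P1, -0.01 to 0.09 for *Atf4*, -0.006 to 0.30 for *Chac1*, -0.14 to 0.08 for *Psat1* and -0.12 to 0.09 for *Phgdh*. At P14 it gave -0.09 to 0.15 for *Atf4*, -0.0085 to 0.14 for *Atf5*, -0.14 to 0.19 for *Trib3*, -0.15 to 0.13 for *Asns* and -0.01 to 0.33 for *Phgdh*. At P21 it gave -0.20 to 0.01 for *Atf5* and -0.09 to 0.13 for *Asns*, and at P35 -0.10 to 0.0048 for *Atf4*.

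Same-numbered WT and KO libraries shared only a number at P1, P21 and P35 (mean correlations -0.144, 0.117 and 0.068). At no age, P14 included, did every library correlate best with its own number. With the replicate block, *Chac1* at P21 was 1.37, *Psat1* at P35 was 1.23, and *Chac1* (-1.60, adjusted *P*=0.00993) and *Phgdh* (0.84, adjusted *P*=0.00769 in edgeR's test) passed at P35. Depth limited *Fgf21* and, after P1, *Gdf15*.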
